A study of Xenopus laevis with 2 samples.

Results

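Transcripts of the carbonic anhydrase family were examined in hearts of Xenopus laevis tadpoles, a frog whose genome holds many genes as homeologs, an L and an S copy. The family was taken as every row of the deposited read table whose symbol is ca followed by a number, with an optional copy ending. This gave 5 of 8879 transcripts, namely ca2, ca13, ca4, ca6 and ca12. A sixth row, ca5b, is also a carbonic anhydrase but its letter ending falls outside that pattern, so its values are given beside those of the 5 members and are left out of the counts. Members were chosen by symbol, but the family was selected on the read ratios of ca2 and ca13 between these same libraries, so those values are a description.

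Hearts came from sibling embryos at stage 44 to 45 that had been injected with Tcf21-MO, an antisense morpholino oligomer against the epicardial transcription factor gene tcf21, or with Control-MO. Both groups were thus injected, at fertilization, and no uninjected hearts entered the comparison. Each group was 1 library of polyadenylated RNA from 70 to 100 pooled hearts, with 17767221 reads for Tcf21-MO and 17636925 for Control-MO. With 1 library per group no difference has a replicate check, no p-value was computed, and every ratio compares these libraries, not the conditions. The tcf21 transcript had 3738 reads in the Tcf21-MO library and 1266 in the Control-MO library, a ratio of 3.01 (2.82 to 3.21). Since the labels leave the morpholino's mode of action open, an mRNA level cannot check them, and the Tcf21 protein was not measured here. Cardiac muscle markers were abundant in both libraries and none was at 0, with summed levels of 37094 CPM (read counts scaled to library size) for 6 markers in the Tcf21-MO library and 53909 CPM in the Control-MO library.

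Carbonic anhydrases are zinc enzymes that interconvert carbon dioxide and bicarbonate. In red blood cells the reaction lets carbon dioxide from tissues be carried in plasma as bicarbonate, which leaves the cell in exchange for chloride through the anion exchanger encoded by slc4a1. In mammals, family members differ mainly in where they act. CA2 and CA13 are cytosolic, CA4 is anchored by a lipid to the outer cell surface, CA5B is mitochondrial, CA12 spans the plasma membrane and CA6 is secreted, chiefly in saliva.

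The members ca2 and ca13, cytosolic in mammals, were lower in the Tcf21-MO library, and ca4 was within 1.5-fold. At 32 and 28 reads over both libraries, ca6 and ca12 were too shallow to place. Of the 5 members, 2 were at least 2-fold lower with a counting interval that excluded a ratio of 1, and 0 were at least 2-fold higher. By the same rule, 2.4% of 8132 tested transcripts were lower and 2.67% were higher. Tested transcripts had at least 20 reads over both libraries, and all 5 members and ca5b passed that floor. Both lower members, ca2 and ca13, also passed a 4-fold threshold, which 0.418% of tested transcripts passed in the lower direction and 0.406% in the higher direction. The counts were also 2 and 0 at 1.5-fold, a threshold passed by 6.67% of tested transcripts in the lower and 7.82% in the higher direction. Because these 2 members were picked with their values known, nothing is read from that share. The median log2 ratio of the 5 members was -0.38, beside 0.00 over all tested transcripts. With a floor of 100 reads, which leaves out ca6 and ca12, the family median was -2.30.

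The ca2 row, whose mammalian counterpart is a fast cytosolic enzyme abundant in red blood cells, had 3871 reads in the Tcf21-MO library and 22527 in the Control-MO library. These counts correspond to 221 CPM (214 to 228) in the Tcf21-MO library and 1261 CPM (1245 to 1278) in the Control-MO library. The interval in parentheses after a level or ratio is a 95% exact counting interval and does not cover variation between hearts. The transcript was 5.71-fold lower (5.52 to 5.91), a log2 ratio of -2.51. It ranked at place 18 from the lowest log2 ratio among the 8132 tested transcripts. Among the 200 transcripts with at least as many reads as ca2 over both libraries, only 1, the alpha globin transcript hba-l5, had a lower ratio.

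The ca13 row, another cytosolic member, had 239 reads in the Tcf21-MO library and 1197 in the Control-MO library, or 13.6 CPM (11.95 to 15.5) in the Tcf21-MO library and 67.0 CPM (63.3 to 70.9) in the Control-MO library. It was 4.91-fold lower (4.28 to 5.67), a log2 ratio of -2.30 at place 26 from the lowest. Of 3310 transcripts with at least as many reads, 3 had a lower ratio, namely ca2, hba-l5 and the intelectin gene itln1. The intervals of the ca2 and ca13 folds overlapped. The number of ca2 reads per ca13 read was 16.2 in the Tcf21-MO library and 18.8 in the Control-MO library, a relative value of 0.861 (0.745 to 0.997) whose interval reached almost to 1.

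The ca4 row, whose mammalian counterpart faces the blood on capillary endothelium and is also found in heart muscle, had 700 reads in the Tcf21-MO library and 927 in the Control-MO library. Its level was 39.9 CPM (37.0 to 43.0) in the Tcf21-MO library and 51.9 CPM (48.6 to 55.3) in the Control-MO library. The transcript was 1.30-fold lower (1.18 to 1.44), short of the 2-fold threshold but with an interval that excluded 1. Its log2 ratio of -0.38 lay between the median log2 ratios of endothelial and cardiac muscle markers, and within the range of both lists. The endothelial list was added after results were seen. Over all tested transcripts 2.4% were at least 2-fold lower and 2.67% higher, so a count of 0 in lists of 7 or 6 says little. None of 7 endothelial markers passed 2-fold (0 in either direction), and their summed level was 464 CPM in the Tcf21-MO library and 474 CPM in the Control-MO library. Their median log2 ratio was -0.06, in a range from -0.98, just short of 2-fold lower, to 0.31. The abundant members pecam1, an adhesion receptor, and aplnr, the apelin receptor, had ratios of 0.862 (0.807 to 0.920) and 0.963 (0.914 to 1.01). Of 6 cardiac muscle markers 0 passed 2-fold, with a median of -0.49, and 5 of them lay below 0. The most abundant of these were the myosin heavy chain myh6, with a ratio of 0.626 (0.624 to 0.629), and the cardiac actin actc1, with a ratio of 0.858 (0.852 to 0.864). The part of either cell type in the ca4 value was not tested.

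The mitochondrial ca5b row went slightly the other way, with 687 reads in the Tcf21-MO library and 592 in the Control-MO library, or 39.2 CPM (36.3 to 42.2) in the Tcf21-MO library and 33.1 CPM (30.5 to 35.9) in the Control-MO library. Its ratio was 1.18 (1.06 to 1.32). Counted with the members, it would make 2 of 6 rows lower and 0 higher, and the family median would be -0.26.

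The secreted ca6 and the transmembrane ca12 were close to the limit of detection. The ca6 row had 15 reads in the Tcf21-MO library and 17 in the Control-MO library, with a ratio of 0.902 (0.418 to 1.91). The ca12 row had 15 reads in the Tcf21-MO library and 13 in the Control-MO library, with a ratio of 1.17 (0.522 to 2.68). Both intervals reached past 2-fold on at least one side, so this depth cannot tell such a difference from none. A level of 0.855 CPM for each in the Tcf21-MO library stood against 0.171 CPM, the level that a count of 0 allows there.

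**Figure D1:**
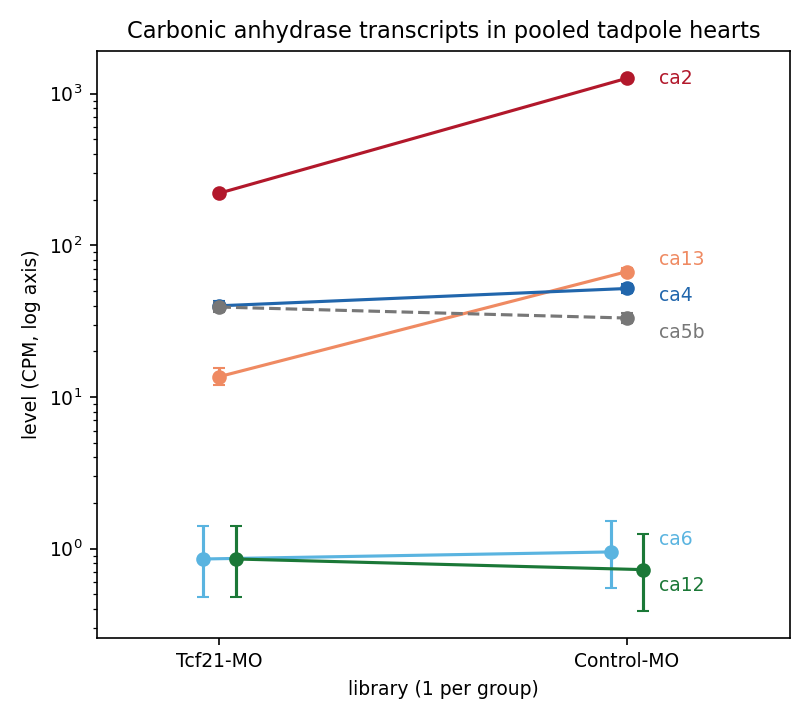
Level of each carbonic anhydrase transcript in CPM (log axis) in the Tcf21-MO and Control-MO libraries, 1 library each, with 95% exact counting intervals as bars. The lines of ca2 and ca13 are steep, ca4 and the dashed ca5b differ by less than 1.5-fold in opposite directions, and ca6 and ca12 lie near 1 CPM with overlapping intervals.

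**Figure D2:**
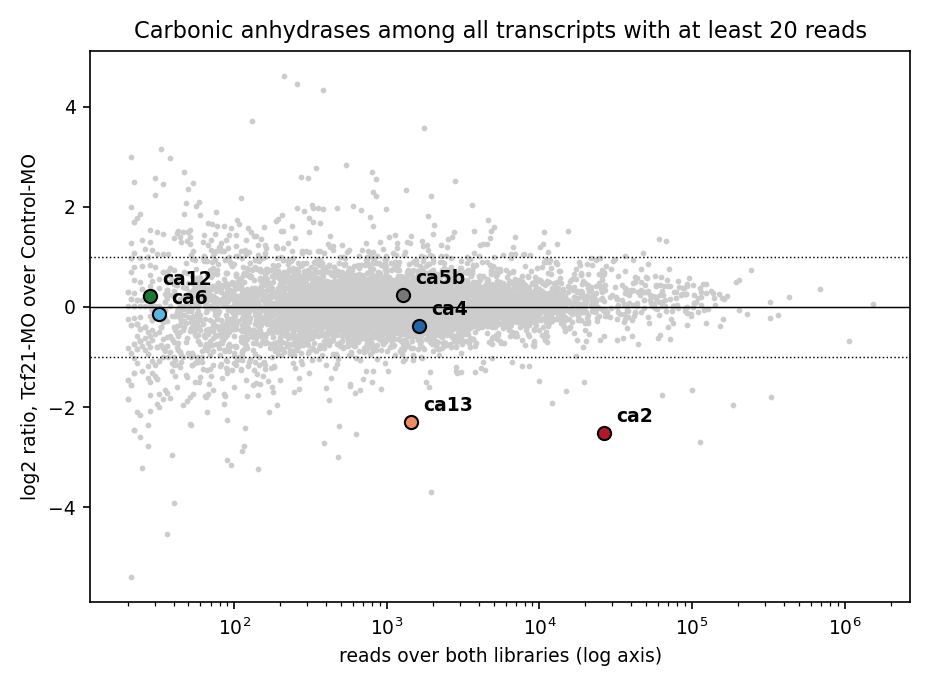
Tcf21-MO over Control-MO log2 ratio against the reads over both libraries (log axis) for 8132 tested transcripts in grey, with the carbonic anhydrases in colour and dotted lines at 2-fold. At their read depth ca2 and ca13 lie at the lower edge of all transcripts, while ca4, ca5b, ca6 and ca12 lie inside the main cloud.

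Levels between members were compared per kilobase of the deposited transcript length. In the Tcf21-MO library ca2 led with 120 CPM per kb (117 to 124), followed by ca4 at 22.2 (20.6 to 23.9), ca13 at 4.73 (4.15 to 5.37), ca6 at 0.487 and ca12 at 0.474 CPM per kb. In the Control-MO library the order was the same, with ca2 at 688 CPM per kb (679 to 697), ca4 at 28.9 (27.0 to 30.8), ca13 at 23.3 (21.97 to 24.6), ca6 at 0.542 and ca12 at 0.403 CPM per kb. Intervals of neighbours in this order did not overlap, except those of ca6 and ca12 in both libraries. The ca5b row, at 18.8 CPM per kb in the Tcf21-MO library and 15.9 CPM per kb in the Control-MO library, stood above ca13 in the Tcf21-MO library and below it in the Control-MO library. Among all 8879 rows, ca2 held place 714 by CPM per kb in the Tcf21-MO library and place 168 in the Control-MO library. The corresponding places of ca13 were 6250 in the Tcf21-MO library and 2791 in the Control-MO library, whereas ca4 was at 2924 in the Tcf21-MO library and 2335 in the Control-MO library.

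The make-up of the family differed accordingly. Reads of all 5 members summed to 4840 in the Tcf21-MO library and 24681 in the Control-MO library, 5.01-fold lower (4.85 to 5.16). Of the family's reads, ca2 took 80.0% (78.8 to 81.1) in the Tcf21-MO library and 91.3% (90.9 to 91.6) in the Control-MO library. The share of ca4 was 14.5% (13.5 to 15.5) in the Tcf21-MO library and 3.76% (3.52 to 4.0) in the Control-MO library, although its own level was slightly lower. The share of ca13 was 4.94% (4.34 to 5.59) in the Tcf21-MO library and 4.85% (4.59 to 5.13) in the Control-MO library. With ca2 and ca13 left out, the other 3 members summed to 730 reads in the Tcf21-MO library and 957 in the Control-MO library, 1.29-fold lower (1.17 to 1.42).

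Red cell transcripts were lower alongside ca2 and ca13. In RNA from whole hearts, fewer red cells and less RNA per red cell cannot be told apart. Of 9 measured globin transcripts, 9 were at least 2-fold lower, beside 2.4% of all tested transcripts. Their median log2 ratio was -1.70, in a range from -2.70 to -1.08. Their summed level was 9403 CPM in the Tcf21-MO library and 35510 CPM in the Control-MO library, none was at 0, and their reads made up 0.928% of the Tcf21-MO library and 3.60% of the Control-MO library. The most abundant were the alpha globins hba3, hba-l5 and hba2, at 3.48-fold (3.45 to 3.51), 6.52-fold (6.41 to 6.63) and 3.16-fold (3.11 to 3.21) lower, and hbd, at 3.89-fold (3.85 to 3.94) lower, though globin rows are alike enough to share reads. Of 17 other erythroid transcripts (membrane skeleton, heme synthesis and regulators), 8 were at least 2-fold lower and 0 higher. The shares over all tested transcripts were 2.4% lower and 2.67% higher. All 17 erythroid transcripts had a log2 ratio below 0, and their median was -0.995. The summed level of these 17 was 1043 CPM in the Tcf21-MO library and 2338 CPM in the Control-MO library, with none at 0. The anion exchanger slc4a1 was 3.78-fold lower (3.61 to 3.95) and the heme synthesis enzymes alas2 and urod were 3.19-fold (3.08 to 3.32) and 2.32-fold (2.17 to 2.48) lower. The membrane skeleton anchor ank1 was 4.02-fold lower (3.62 to 4.48), while gypc, a membrane glycoprotein gene, was only 1.09-fold lower (1.05 to 1.13).

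Among these 26 erythroid transcripts 3 had a lower ratio than ca2, and the same 3 had a lower ratio than ca13. They were gfi1b, a transcription factor gene of the red cell and platelet lineages, hba-l5, and rhd, of the Rh blood group family. The log2 ratio of ca2 differed from the erythroid median log2 ratio of -1.48 by -1.04. That of ca13 differed from the same median by -0.82. By contrast ca4, with a difference of 1.10, was higher than 25 of the 26. The family was selected on the low ratios of ca2 and ca13, so nothing is read from their places in this order.

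Set against slc4a1, alas2 and the summed globins of the same library, ca2 was lower in the Tcf21-MO library, whereas gfi1b, hba-l5 and rhd had lower ratios than ca2 itself. There were 1.56 ca2 reads per slc4a1 read in the Tcf21-MO library and 2.35 in the Control-MO library, a relative value of 0.661 (0.625 to 0.699). Per alas2 read there were 1.11 ca2 reads in the Tcf21-MO library and 1.98 in the Control-MO library, a relative value of 0.559 (0.531 to 0.588). Per 1000 globin reads there were 23.5 ca2 reads in the Tcf21-MO library and 35.5 in the Control-MO library. The ca13 row showed the same direction, with 0.0960 reads per slc4a1 read in the Tcf21-MO library and 0.125 in the Control-MO library, a relative value of 0.768 (0.661 to 0.890). These within-library values do not depend on how the libraries were scaled. They rest on the same ca2 and ca13 counts for which the family was selected, so they are a description.

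**Figure D3:**
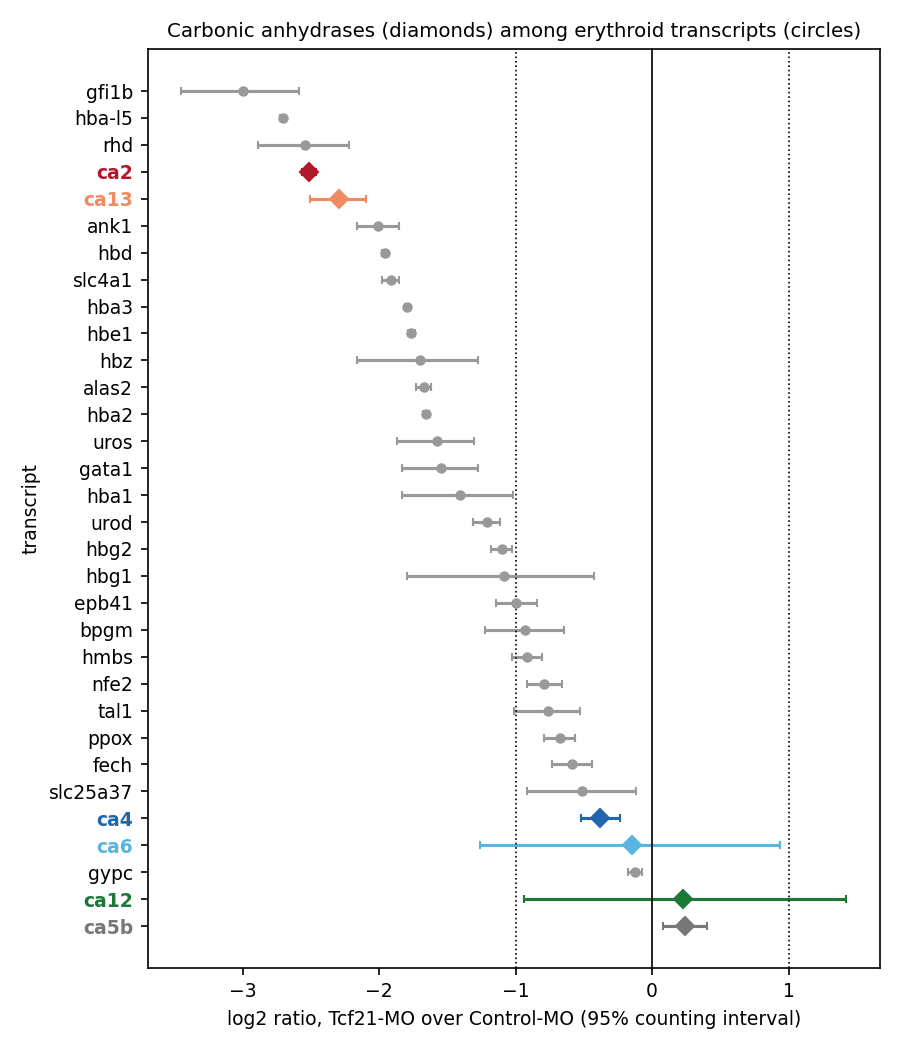
Log2 ratios (Tcf21-MO over Control-MO), with 95% counting intervals, for the carbonic anhydrases (diamonds) and 26 globin and other erythroid transcripts (circles), ordered from the lowest at the top, with dotted lines at 2-fold. The cytosolic ca2 and ca13 follow directly after gfi1b, hba-l5 and rhd, while the points of ca4, ca6, ca12 and ca5b lie at the other end with gypc. The intervals of ca6 and ca12, at 32 and 28 reads, are too wide to place them.

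The transcripts most alike to each lower member were sought among transcripts outside the family with a summed count within 2-fold of it, by the difference in log2 ratio over the 2 libraries. For ca2, none of 276 such transcripts came close. The nearest was alas2, whose log2 ratio of -1.68 was 0.84 away, followed by the smooth muscle actin acta2 at -1.50 and the skeletal actin acta1 at -0.98. Reads of similar actins may be shared between these rows, which makes their values uncertain. For ca13, the nearest of 3252 transcripts was ank1 at -2.01, which was 0.29 away, followed by the retinaldehyde dehydrogenase gene aldh1a1 at -1.64. Since the search used the same log2 ratios for which ca2 and ca13 were selected, it only names other low ratios at a similar read depth.

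Among other genes of acid-base and gas transport, only slc4a1 and rhd passed 2-fold in the lower direction. Both also count among the erythroid transcripts above. Of 3 tested bicarbonate transporters 1 was lower, the red cell exchanger slc4a1, whereas pendrin (slc26a4), a chloride and bicarbonate exchanger, had a ratio of 0.815 (0.726 to 0.914) and the sodium bicarbonate cotransporter slc4a7 had a ratio of 1.01 (0.887 to 1.15). Of 5 gas and ammonia channels 1 was lower and 1 higher, beside 2.4% lower and 2.67% higher over all tested transcripts. The lower one was rhd, at 5.82-fold (4.67 to 7.39), and the higher one was the water channel aqp4, with 111 reads in the Tcf21-MO library and 48 in the Control-MO library, 2.34-fold higher (1.66 to 3.38). The abundant ammonia transporter rhbg had 14351 reads in the Tcf21-MO library and 7378 in the Control-MO library, a ratio of 1.98 (1.93 to 2.04) just under the threshold. The red cell and capillary water channel aqp1 had a ratio of 1.17 (1.09 to 1.26).

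Over all tested transcripts, 2.4% were at least 2-fold lower and 2.67% higher. At those shares, a count of 0 or 1 in a list of 6 or 19 says little about its members. Of 6 proton exchangers, their regulators and lactate transporters 0 passed 2-fold, with a median log2 ratio of 0.25. The most abundant were bsg, a partner of lactate transporters, with a ratio of 1.00 (0.964 to 1.04), and the exchanger regulator slc9a3r2, with a ratio of 1.09 (1.04 to 1.14). Of 19 tested subunits of proton pumps 0 passed 2-fold, 4 lay below 0, and the median was 0.21, beside 0.00 over all transcripts. The abundant subunits atp6v0c and atp6v1g1 had ratios of 1.09 (1.04 to 1.14) and 1.29 (1.21 to 1.37). Of 19 genes commonly induced by low oxygen, which in mammals include CA9 and CA12, 1 passed 2-fold in the higher direction and 0 in the lower, and the median was 0.30. That gene was the glycolytic hexokinase hk2, with 248 reads in the Tcf21-MO library and 78 in the Control-MO library, 3.22-fold higher (2.50 to 4.23), while the glycolytic enzymes eno1 and pgk1 had ratios of 1.53 (1.49 to 1.57) and 1.26 (1.23 to 1.29).

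**Figure D4:**
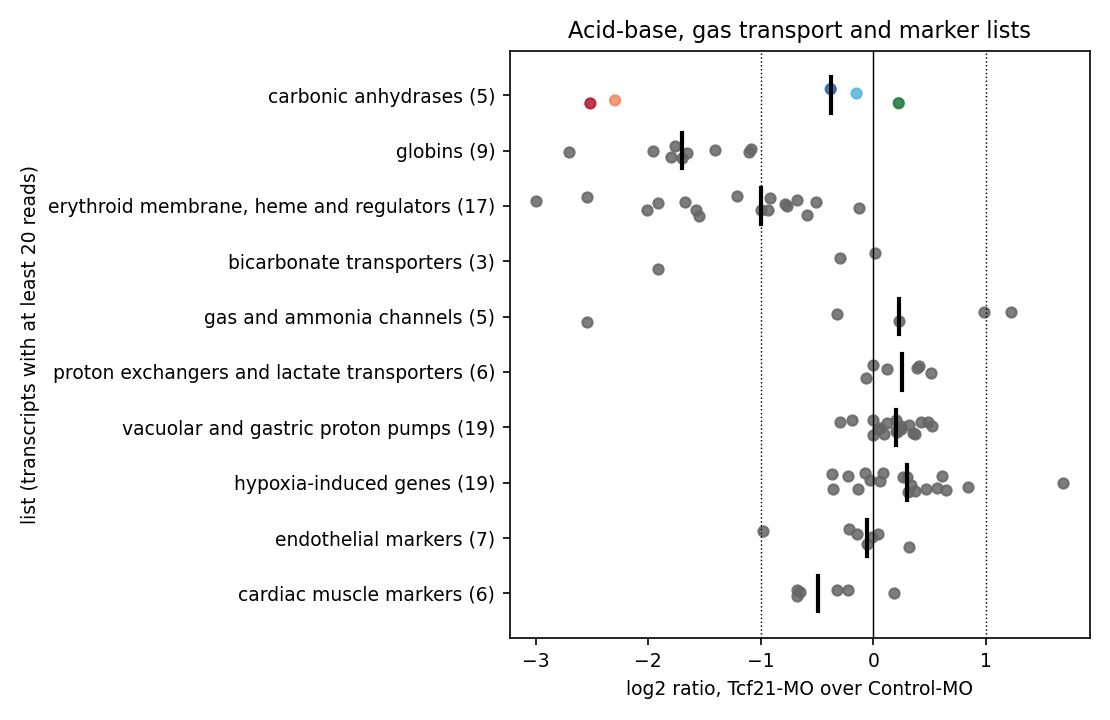
Log2 ratios (Tcf21-MO over Control-MO) for the 5 carbonic anhydrases and the tested members of each list (number in parentheses), with a black bar at the median of lists with at least 5 tested members and dotted lines at 2-fold. Of the lists plotted, the globin and erythroid ones have the lowest medians, at -1.70 and -0.995, and the proton pump points all lie between -0.29 and 0.52. The neural list, which is not plotted, has a median of -1.47.

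Markers of other cell types that express carbonic anhydrases in vertebrates were also measured. Over all tested transcripts 2.4% were at least 2-fold lower and 2.67% higher. At those shares, a count of 0 or 1 in a list of 6 says little about its members. Of 6 tested ionocyte markers, which mark acid- and base-secreting cells of the skin and kidney, 0 passed 2-fold, the median log2 ratio was -0.04, and summed levels were 909 CPM in the Tcf21-MO library and 503 CPM in the Control-MO library, chiefly from rhbg. The log2 ratios of 3 of the 6 lay below 0, among them foxi1 with a ratio of 0.624 (0.480 to 0.804). Gastric and pancreatic markers were low, with summed levels of 5.13 CPM in the Tcf21-MO library and 11.6 CPM in the Control-MO library. Of the 3 tested, the pancreatic proteases cela1 and ctrb1 were lower, at 3.17-fold (1.85 to 5.94) and 2.34-fold (1.68 to 3.32). The other tested marker, cpa1, was not, with 19 reads in the Tcf21-MO library and 22 in the Control-MO library. Both gastric proton pump rows were below the read floor and went opposite ways. The atp4a row had 2 reads in the Tcf21-MO library and 0 in the Control-MO library. The atp4b row had 1 read in the Tcf21-MO library and 7 in the Control-MO library. Of 6 neural markers 4 were lower, with a median of -1.47, at summed levels of only 21.3 CPM in the Tcf21-MO library and 48.8 CPM in the Control-MO library. The most abundant lower members were the growth cone gene gap43 at 2.25-fold (1.82 to 2.81) and stmn2 at 9.42-fold (5.50 to 18.8), the neurofilament genes nefm and nefl were 4.28-fold (2.33 to 9.07) and 3.40-fold (1.42 to 10.9) lower from 54 and 22 Control-MO reads, while syt1 was 1.68-fold lower (1.41 to 2.01).

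Of 6 tested skeletal muscle markers 1 was lower, beside 2.4% of all tested transcripts, and the median log2 ratio was -0.13. That marker was myog, with 7 reads in the Tcf21-MO library and 20 in the Control-MO library. The abundant members of that list, ckm and actn3, had ratios of 1.22 (1.21 to 1.23) and 0.900 (0.875 to 0.924). Whether their reads came from skeletal or heart muscle was not tested in this RNA from whole hearts. Of 2 thrombocyte markers, gp9 was 2.18-fold lower (1.54 to 3.14) and itga2b.2 was 1.03-fold lower (0.983 to 1.09). The part of any of these cell types in the ca2 and ca13 values was not tested.

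In the gene order of assembly version 10.1, from which no coordinates were taken because the build behind the table is not given in the sources used here, ca13.L and ca2.L are near neighbours on the L subgenome, separated by ca1.L and ca3.L. Neither ca1 nor ca3 was analysed here. The 5 nearest measured genes on each side, up to 15 protein-coding genes away, were set beside them. None of these 10 was at least 2-fold lower, beside 2.4% of all tested transcripts, and their log2 ratios ran from -0.97 to 1.95. At that share, so few genes cannot show whether the low ratios extended along the chromosome. On the ca13 side the nearest measured gene, the centrosomal gene lrrcc1, had a ratio of 0.971 (0.709 to 1.33), and chmp4c, a membrane scission gene, was 1.96-fold lower (1.45 to 2.67). The myelin lipid-binding gene pmp2 and its neighbour fabp4, a fatty acid-binding protein gene, were 3.88-fold (3.03 to 5.05) and 2.17-fold (1.36 to 3.59) higher. On the ca2 side the nearest was the proton pump subunit atp6v0d2, with a ratio of 1.16 (0.976 to 1.38), followed by the copine gene cpne3 with a ratio of 1.32 (1.22 to 1.42).

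**Figure D5:**
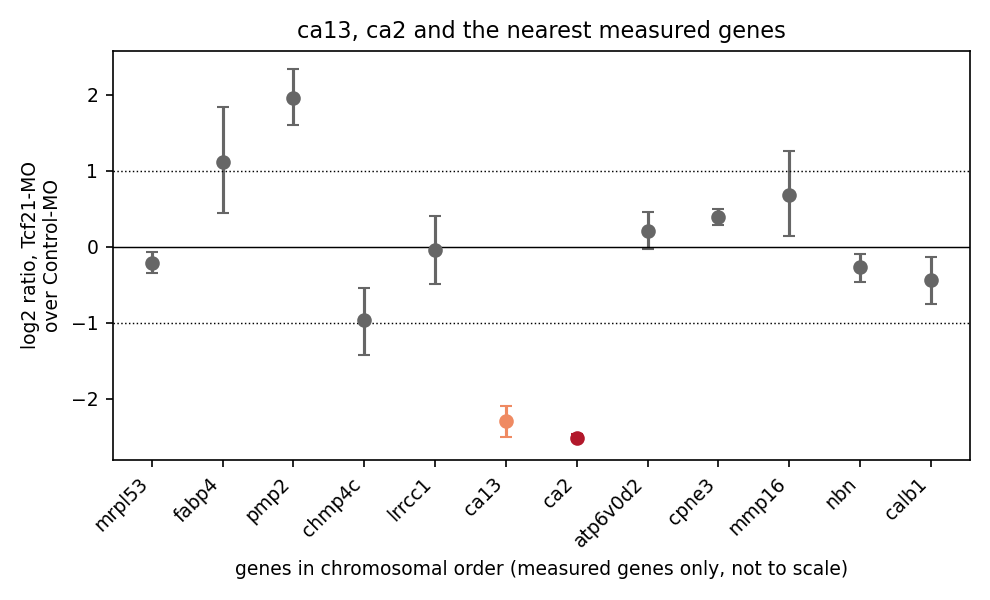
Log2 ratios (Tcf21-MO over Control-MO), with 95% counting intervals, for ca13, ca2 and the 5 nearest measured genes on each side in chromosomal order (not to scale), with dotted lines at 2-fold. Only ca13 and ca2 lie below the lower dotted line, pmp2 and fabp4 lie above the upper one, and chmp4c lies just inside the lower one.

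The name table called the ca4 row ca4.1.S and the other members L copies. It listed 20 carbonic anhydrase genes, of which 6 matched a row, ca5b included, and the other 14, among them the S copy of ca2, were not analysed here. Reads of near-identical homeologs can have been counted on 1 row, so the ca2 value may include reads of both copies.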

How the data were processed

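The authors deposited raw read counts of 8879 RefSeq transcripts in 2 libraries, and each transcript's length in bp as another column, per the file headers. SAMtools 0.1.18.0, Bowtie2 2.0.0.6 and CASAVA 1.7 are listed, per the submitters' processing notes. The settings, build, counting rule and strand option were not given in the sources used here. Per the labels, each library was made from 1 µg of total RNA and embryos were kept at 16 to 23 °C.

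Counts were scaled with TMM factors of 0.987 for Tcf21-MO and 1.01 for Control-MO (edgeR 4.0.16, R 4.3.3). The log2 ratio of Tcf21-MO over Control-MO was computed with 0.5 counts added (SciPy 1.17.1, NumPy 2.4.6 and pandas 2.3.3 in Python 3.11.15). Its 95% Clopper-Pearson interval is conditional on the summed count, CPM levels have exact Poisson intervals, shares have Clopper-Pearson intervals, and relative values of 2 rows have conditional exact intervals. All cover counting error only. Since reads lacking molecular identifiers can repeat 1 molecule, the intervals may be too narrow even for that. Transcripts were called lower or higher from a 2-fold difference on, if 1 lay outside the interval. A count of 0 allows up to 3 counts. The procedure was tested on data simulated with counting error only, so that test does not bear on variation between hearts or on repeated reads. The row with the most reads stood for a list gene with several rows, and a median needed 5 tested members.

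Members and lists were chosen with earlier results of these data known. Named genes were every family row, tcf21, up to 4 members past the rule and the 2 with the most reads of each list, and the 3 transcripts most alike to ca2 and ca13. A gene that this rule selects is not reported here. The endothelial list, the chromosomal neighbours and ca5b were added after results were seen. The genes gfi1b, itln1, slc4a7, atp4a, atp4b, cpa1, foxi1 and those in the within-library ratios were named after their values were seen. RefSeq accessions of assembly version 10.1 matched 8315 rows and were used for names and gene order only. Alternatives changed the scaling (total count, DESeq2 1.42.0 size factors, TMM without the 50 most abundant transcripts), the floor, the counts added, the fold and the summing of copies.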

Additional observations from a re-analysis of the deposited data

How the results depend on the processing

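The counts of 2 lower and 0 higher members were the same under all 11 alternatives run, including thresholds of 1.5-fold and 4-fold. The family was selected on ca2 and ca13, whose whole intervals lay past 4-fold lower, so the count of 2 could hardly change. The log2 ratio of ca2 ran from -2.55 to -2.51 and that of ca13 from -2.33 to -2.29 over 8 alternatives each, and ca4, ca6 and ca12 stayed within their counting intervals. The family median ran from -2.30 to -0.26. It was -2.30 with a floor of 100 reads, because ca6 and ca12 were left out there, and -0.26 with ca5b added. Over all transcripts, 106 were at least 2-fold lower with a floor of 100 reads. At 1.5-fold 542 were lower and 636 higher, and at 4-fold 34 were lower and 33 higher. The median of all transcripts was -0.0333 when scaled to the total count. All 87 list medians under the alternatives stayed within the intervals of the list medians. For small lists, such as the ionocyte and neural ones of 6 tested members, that interval was their whole range. A median could hardly leave it. The ionocyte median ran from -0.30 to -0.04 and the neural one from -1.77 to -1.43. Scaling to transcripts outside the globin and erythroid lists and adding ca5b were chosen after seeing the data. No paired analysis was possible because each group held 1 library, and no replicate could be left out for the same reason. Depth limits ca6 and ca12 most, at 32 and 28 reads over both libraries.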
